A study of Rattus norvegicus with 44 samples.

Results

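Kidney transcripts of obese ZSF1 rats given Compound 1 alone were compared with those of rats given the vehicle. Compound 1 is a stimulator of soluble guanylate cyclase (sGC). The comparison takes 23 of the 44 animals of the study, 12 in the Compound 1 group and 11 in the Vehicle group, across the 13482 of 32883 entries of the deposited table with an FPKM (reads per transcript scaled to its length and to the size of the library) above 1 in at least 9 of the 44 animals. All animals were male, obese, diabetic ZSF1 rats fitted with a blood pressure transmitter, a model of diabetic nephropathy, and received drug or vehicle in the feed from 22 weeks of age for 6 months. The Compound 1 group received 1 mg/kg/day, which was raised to 3 mg/kg/day during the study. The remaining animals received Enalapril, an angiotensin-converting enzyme inhibitor, at 3 mg/kg/day (n = 9), or both drugs, Enalapril at that dose and Compound 1 kept at 1 mg/kg/day (the combination, n = 12). Each animal gave 1 library from a piece of 1 kidney. A change in such bulk RNA can come from fewer cells of a type or from less RNA per cell, and these cannot be told apart.

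Nitric oxide (NO) binds the heme of sGC, an enzyme of an alpha and a beta subunit, which then makes cyclic GMP (cGMP). In the kidney cGMP relaxes the afferent arteriole and mesangial cells and acts on tubular transport, and phosphodiesterases break it down. An sGC stimulator raises the activity of the enzyme together with NO. Enalapril blocks the enzyme that forms angiotensin II.

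Read totals are not part of FPKM, so the absolute depth is unknown, but the ratio of low FPKM values between libraries gives their relative depth, which had a median of 0.88 (0.622 to 1.33) in Vehicle and 1.00 (0.844 to 1.34) with Compound 1, relative to the median of the 44 libraries. Between 16246 and 17876 entries were above 0 in Vehicle and between 17108 and 17958 with Compound 1. The 13 mitochondrially encoded transcripts made up 27.5 ± 5.38% of all FPKM in Vehicle (SD, n = 11) and 30.2 ± 3.96% with Compound 1 (n = 12). Defining markers of kidney were high, with uromodulin (Umod) at 970 ± 275 and the phosphate transporter Slc34a1 at a mean of 918 FPKM in Vehicle. The inner medulla markers had a mean log2 level of 3.66 ± 0.15 in Vehicle and 3.74 ± 0.20 with Compound 1. The libraries of Vehicle animal 1004 and Compound 1 animal 3105 stood apart, with median correlations to the other libraries of 0.932 and 0.953 where the rest lay at 0.961 or above. Across all tested genes the median log2 fold change of Compound 1 against Vehicle was -0.07, and 73.2% of the genes had a negative one.

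Few transcripts differed between the Compound 1 and Vehicle groups. In a limma test of log2(FPKM + 0.1) with Benjamini-Hochberg adjustment, 27 genes passed at an adjusted p under 0.05 and had a ratio of the groups above 1.5 or under 0.66. They are here called differentially expressed genes (DEGs). They were 0.2% of the genes tested. Of them 6 were higher with Compound 1 (0.0445%) and 21 were lower (0.156%). Without the fold threshold 64 genes passed (0.475%), and 1793 had an unadjusted p under 0.05 (13.3%). Median-of-ratios scaling, which removes the shift of all genes, gave 10 higher and 16 lower DEGs, and quantile normalization 11 and 16. Without the libraries of animals 1004 and 3105 there were 35 DEGs, of which 24 were among the 27, and with the inner medulla level as a covariate there were 98, of which 26 were. Of the 13 markers in that covariate, Cryab and Fst had an adjusted p under 0.05 themselves (limma, Compound 1 against Vehicle). The covariate can therefore carry part of the treatment difference. The part of the inner medulla in these results was not tested further. Results for 25 of the 27 DEGs follow, 5 higher and 20 lower. Their log2 fold changes had a median size of 0.73.

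**Figure D1:**
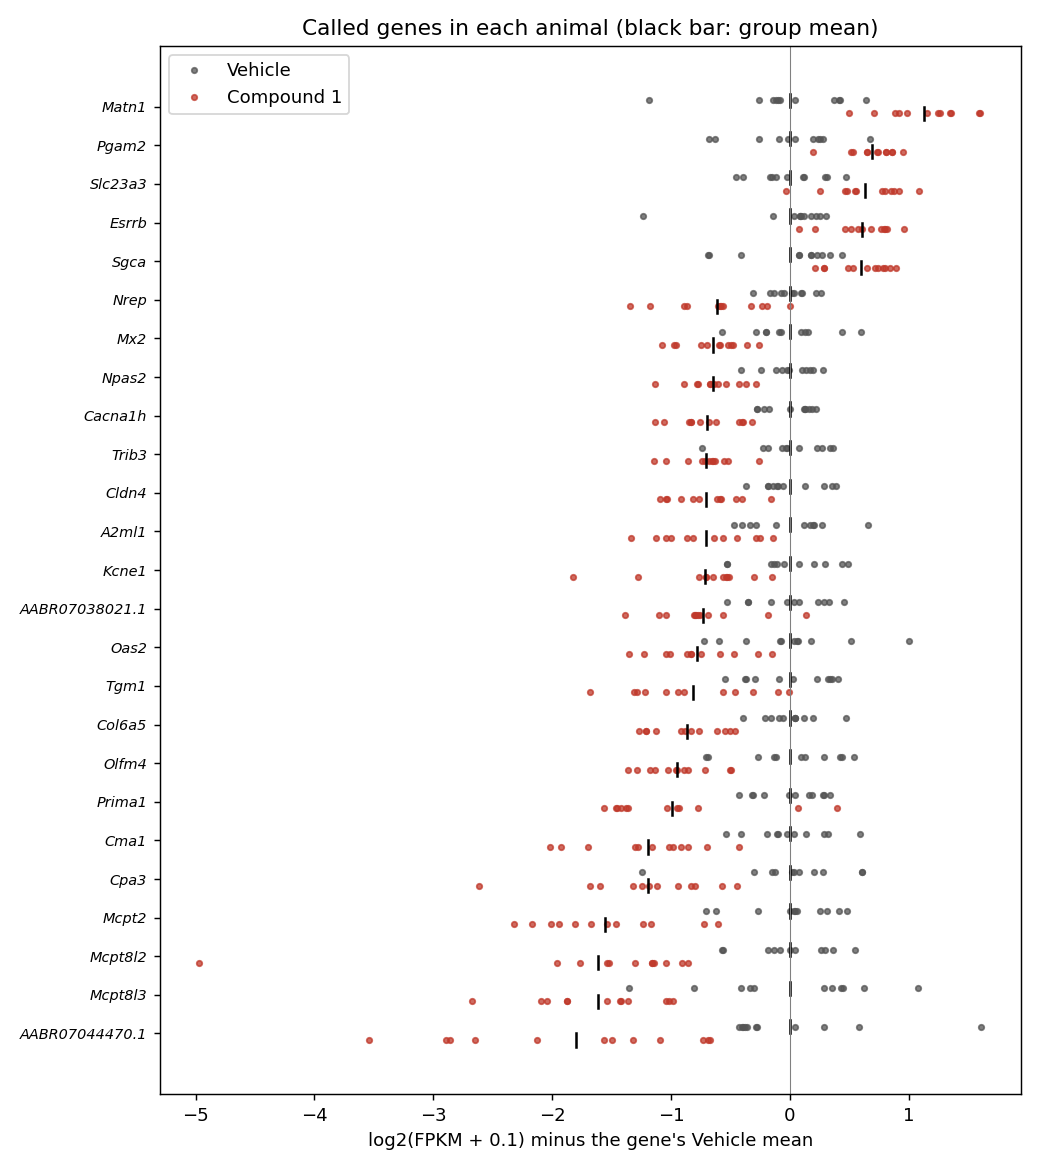
Each of the 25 DEGs described in the 11 Vehicle (grey) and 12 Compound 1 (red) animals. The x axis is log2(FPKM + 0.1) minus the Vehicle mean of the gene, each point is 1 animal and the black bars are group means. The 5 genes on top are higher with Compound 1 and the 20 below are lower. The Compound 1 animal listed at 0 for Mcpt8l2 lies far to the left.

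Transcripts of mast cell proteases were lower with Compound 1. Mast cells store proteases in granules, and in the rat Mcpt2 marks those of the mucosal type, Cma1 (chymase) and Cpa3 (carboxypeptidase A3) are granule proteases, and the Mcpt8-like genes belong to a family whose mouse member Mcpt8 marks basophils. All 5 of these protease genes that were tested were DEGs, and all 5 were lower. Mcpt2 ran from 9.26 to 21.1 FPKM in Vehicle with a median of 15.6, and from 2.95 to 9.94 with a median of 4.91 with Compound 1. Of the 12 Compound 1 animals, 1 lay inside the Vehicle range. The log2 fold change was -1.55 (SE 0.18, limma adjusted p = 9.4e-05).

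Cma1 ran from 1.77 to 4.00 FPKM (median 2.57) in Vehicle and from 0.571 to 1.92 (median 1.18) with Compound 1, which is -1.19 on the log2 scale (SE 0.17, limma adjusted p = 0.0012). All 12 treated animals were below the Vehicle median, and 1 was inside the Vehicle range. Cpa3 ran from 0.958 to 3.71 FPKM (median 2.47) and from 0.309 to 1.74 (median 1.03), which is -1.20 on the log2 scale (SE 0.22, adjusted p = 0.0077). Its ranges overlapped more, with 7 treated animals above the lowest Vehicle animal.

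Mcpt8l2 and Mcpt8l3 were near copies of each other around the gene start. Their transcripts were not compared, so whether reads were shared between them was not tested. Their windows of 300 bases around the gene start (250 before, 50 after) in RefSeq, build GRCr8, lie on the plus strand at chr15:33718231-33718530 and chr15:33673014-33673313. Shifted by 68 bases, 224 of 232 positions are the same (96.6%). They are shown because such likeness, if it extends to the transcripts, can affect each value. The longest identical run, 95 bases, is in capitals.
Mcpt8l2: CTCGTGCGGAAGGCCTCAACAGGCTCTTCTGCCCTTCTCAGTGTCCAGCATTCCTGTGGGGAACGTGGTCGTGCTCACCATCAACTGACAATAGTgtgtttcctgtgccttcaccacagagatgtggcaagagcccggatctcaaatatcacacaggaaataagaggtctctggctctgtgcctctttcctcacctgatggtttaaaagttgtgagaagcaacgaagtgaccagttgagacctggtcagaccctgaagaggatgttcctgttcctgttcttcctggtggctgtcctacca
Mcpt8l3: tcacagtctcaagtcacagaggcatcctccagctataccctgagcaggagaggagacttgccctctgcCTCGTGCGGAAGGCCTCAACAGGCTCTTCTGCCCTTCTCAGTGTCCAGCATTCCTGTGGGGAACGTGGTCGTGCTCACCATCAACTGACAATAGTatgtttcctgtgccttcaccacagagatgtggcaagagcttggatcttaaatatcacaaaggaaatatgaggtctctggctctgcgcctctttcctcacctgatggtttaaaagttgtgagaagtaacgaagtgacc

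Mcpt8l2 ran from 2.01 to 4.49 FPKM (median 3.04) in Vehicle, and with Compound 1 from a listed 0 in animal 3105 to 1.63 (median 1.24). The groups did not overlap. Its log2 fold change was -1.61 (SE 0.33, limma adjusted p = 0.015), and -1.31 without animal 3105, which was the smallest size in any fit with 1 animal left out. Mcpt8l3 ran from 1.12 to 6.48 FPKM (median 3.72) and from 0.39 to 1.48 (median 1.02), which is -1.61 on the log2 scale (SE 0.24, adjusted p = 0.0012). In this gene 3 treated animals reached into the Vehicle range.

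Broader markers of the mast cell lineage did not differ in the same way. Kit, the receptor of stem cell factor, averaged 7.44 ± 1.08 FPKM in Vehicle animals and 7.31 ± 0.732 in those given Compound 1 (log2 fold change -0.02, SE 0.08). The transcription factor Gata2 was at 7.33 ± 0.949 and 6.86 ± 1.03 FPKM, and the granule proteoglycan Srgn at 24.2 ± 3.65 and 24.0 ± 3.37. These 3 genes are also expressed by other cells of the kidney. Of the 18 mast cell markers in the table, 10 were under the filter, and 9 of these 10 had a lower mean with Compound 1, among them the chains of the IgE receptor Fcer1a (0.487 and 0.15 FPKM) and Ms4a2 (0.336 and 0.156). Of all tested genes 73.2% had a negative log2 fold change. Several of these 10 lay near the floor, such as Mcpt1l3 (0.041 and 0.007 FPKM), so the count is weak evidence. Summed over the 18 markers, the level ran from 53.3 to 84.7 FPKM in Vehicle and from 39.5 to 57.6 with Compound 1. That sum includes the 5 protease DEGs and is not separate evidence. The 8 tested markers are these 5 proteases with Kit, Gata2 and Srgn. Their median log2 fold change of -1.19, against -0.07 for all genes, is therefore set by the proteases. With median-of-ratios scaling 5 were DEGs and 6 of 8 were negative.

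Mcpt2, Cma1, Cpa3 and both Mcpt8-like genes also had lower means in the other treated groups. With Enalapril alone Mcpt2 averaged 6.77 ± 3.72 FPKM (SD, n = 9), Cma1 1.23 ± 0.429 and Cpa3 0.951 ± 0.511, next to Compound 1 means of 5.45, 1.15 and 1.07. Of the 8 tested mast cell markers none had an adjusted p under 0.05 between Compound 1 and Enalapril given alone, and 2 had an unadjusted p under 0.05 (limma, median log2 fold change 0.15). That comparison shares the Compound 1 animals with the one against Vehicle.

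Interferon-stimulated genes had lower means with Compound 1, mostly by small steps. These genes are switched on by interferon through STAT and IRF factors and code for antiviral proteins. All 47 that were tested had a negative log2 fold change against Vehicle, where 73.2% of all genes did, with a median of -0.34 against -0.07. The direction held for 46 of 47 with median-of-ratios scaling (median -0.27) and after quantile normalization (median -0.29). Only Mx2 and Oas2 were DEGs, 5 genes had an adjusted p under 0.05 at any fold, and 39 had an unadjusted p under 0.05. With the inner medulla level as a covariate 6 were lower DEGs, 42 of 47 had an adjusted p under 0.05, and the median was -0.41, against -0.10 for all genes. In that fit 4533 of all 13482 genes had an unadjusted p under 0.05. These genes share regulators and are not independent of each other. Between Compound 1 and Enalapril given alone none of the 47 was a DEG, and 3 had an adjusted p under 0.05 (limma). Their median log2 fold change there was 0.09, against 0.07 for all genes.

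Mx2, a dynamin-like antiviral GTPase, ran from 13.9 to 31.3 FPKM (median 19.7) in Vehicle and from 9.76 to 17.2 (median 13.7) with Compound 1. Of the treated animals 5 lay inside the Vehicle range, and the log2 fold change was -0.65 (SE 0.12, limma adjusted p = 0.0057). Oas2, which makes the 2'-5' oligoadenylates that activate RNase L, ran from 1.90 to 6.48 FPKM (median 3.26) and from 1.19 to 2.86 (median 1.75), or -0.78 on the log2 scale (SE 0.17, adjusted p = 0.026). The ubiquitin-like protein Isg15 ran from 10.1 to 17.7 FPKM (median 13.2) and from 7.31 to 11.5 (median 9.65). At -0.45 on the log2 scale (SE 0.09, adjusted p = 0.011) it did not reach the fold threshold. The same holds for Ifit1, which binds foreign RNA (-0.54, SE 0.11, adjusted p = 0.015), and Rsad2, the antiviral enzyme viperin (-0.44, SE 0.10, adjusted p = 0.026). Cxcl10, an interferon-induced chemokine that attracts T cells, averaged 20.1 ± 2.46 FPKM in Vehicle animals and 14.1 ± 2.26 with Compound 1 (-0.51 on the log2 scale, SE 0.09, adjusted p = 0.0027). Without Vehicle animals 1003 and 1004 neither Mx2 nor Oas2 was a DEG, while all 47 genes kept a negative log2 fold change (median -0.28). With Enalapril alone Mx2, Oas2, Isg15 and Cxcl10 averaged 14.5, 2.50, 9.35 and 13.8 FPKM, next to 13.4, 1.87, 9.69 and 14.1 with Compound 1.

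**Figure D2:**
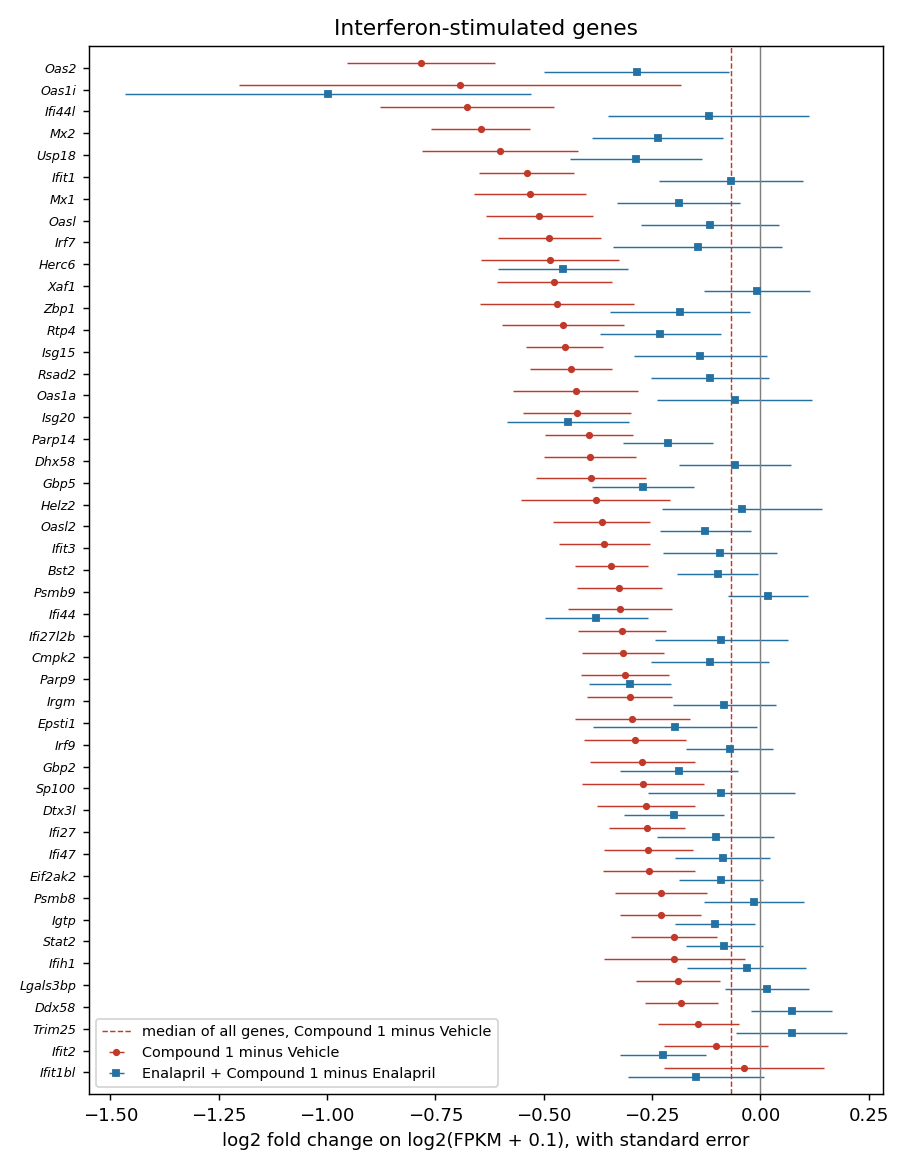
Log2 fold changes (x axis, with SE) of the 47 tested interferon-stimulated genes for Compound 1 minus Vehicle (red circles) and for the combination minus Enalapril (blue squares). All 47 red circles are left of 0, and 43 of the blue squares are. The dashed line is the median of all genes for Compound 1 minus Vehicle, -0.07.

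Promoters of these genes often hold the interferon-stimulated response element. Windows in RefSeq, build GRCr8, from 250 bases before to 50 after the gene start were found for 36 of the 47 genes. The letters GAAA, any 2 bases and GAAA again were searched on both strands, and 23 of the 36 windows (63.9%) held them, against 3.77% of all 27457 windows. A match is a description of the sequence only. Mx2 and Oas2 had no window in the table. Of the genes with a window that held the letters, Rsad2, Irf7 and Bst2 had the smallest p in the comparison with Vehicle, and they are shown with each match in capitals. Rsad2 lies on the minus strand at chr6:48788071-48788370, Irf7, a transcription factor of the interferon response, on the minus strand at chr1:205799974-205800273, and Bst2 (tetherin) on the minus strand at chr16:18254918-18255217. In Bst2 the capitals cover 2 overlapping matches.
Rsad2: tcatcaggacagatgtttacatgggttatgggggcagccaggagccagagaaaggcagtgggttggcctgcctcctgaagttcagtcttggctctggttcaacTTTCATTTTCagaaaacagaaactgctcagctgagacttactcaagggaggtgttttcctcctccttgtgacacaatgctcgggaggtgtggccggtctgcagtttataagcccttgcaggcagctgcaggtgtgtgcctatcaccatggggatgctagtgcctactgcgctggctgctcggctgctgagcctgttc
Irf7: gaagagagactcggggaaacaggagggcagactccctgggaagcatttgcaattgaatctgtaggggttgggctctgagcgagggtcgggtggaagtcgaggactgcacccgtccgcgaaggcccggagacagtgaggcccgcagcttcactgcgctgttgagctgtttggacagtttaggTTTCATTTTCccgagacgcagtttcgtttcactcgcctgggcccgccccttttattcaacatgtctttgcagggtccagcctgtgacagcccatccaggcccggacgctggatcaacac
Bst2: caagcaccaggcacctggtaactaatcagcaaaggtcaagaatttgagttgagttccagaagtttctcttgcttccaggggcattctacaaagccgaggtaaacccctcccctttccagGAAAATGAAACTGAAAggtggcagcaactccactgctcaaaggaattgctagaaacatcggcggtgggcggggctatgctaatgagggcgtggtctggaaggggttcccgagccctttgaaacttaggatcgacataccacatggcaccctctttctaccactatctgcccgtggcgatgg

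Irf7 averaged 40.2 ± 8.22 FPKM in Vehicle animals and 28.8 ± 6.28 with Compound 1 (log2 fold change -0.49, SE 0.12, limma adjusted p = 0.060), and Bst2 at 66.7 ± 9.41 and 52.5 ± 7.30 (-0.34, SE 0.08, adjusted p = 0.060). Neither passed the test.

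Transcripts of the collecting duct differed in both directions. Of 24 tested markers of principal cells, which reabsorb sodium and water, Cldn4 and Kcne1 were lower DEGs and none was a higher one. Cldn4, a claudin of the tight junction, ran from 85.3 to 144 FPKM (median 102.6) in Vehicle and from 51.6 to 98.9 (median 68.5) with Compound 1, with 1 treated animal inside the Vehicle range. The log2 fold change was -0.70 (SE 0.11, limma adjusted p = 0.0012). Cldn4 averaged 67.3 ± 12.7 FPKM with Enalapril alone and 68.8 ± 14.2 with Compound 1. Its relatives Cldn3 (44.1 ± 7.44 and 33.8 ± 7.16 FPKM, adjusted p = 0.11) and Cldn8 (35.3 ± 6.57 and 35.5 ± 5.84) did not pass. Scnn1a, the alpha subunit of the epithelial sodium channel, ran from 20.3 to 26.6 FPKM (median 24.1) in Vehicle and from 26.8 to 36.9 (median 30.4) with Compound 1. The ranges did not overlap, although 0.34 on the log2 scale (SE 0.06, limma adjusted p = 0.0031) is inside the fold threshold. The beta and gamma subunits Scnn1b (log2 fold change 0.05, SE 0.06) and Scnn1g (-0.05, SE 0.07) had values near 0, as did the water channel Aqp2 (0.04, SE 0.07).

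Kcne1, the small subunit that slows the potassium channel Kcnq1, ran from 3.05 to 6.28 FPKM (median 4.30) in Vehicle and from 1.18 to 3.99 (median 2.89) with Compound 1. The log2 fold change was -0.71 (SE 0.16, limma adjusted p = 0.034). Its partner Kcnq1 moved the other way within the fold threshold, from 11.2 ± 1.26 to 13.6 ± 1.02 FPKM (0.29, SE 0.06, adjusted p = 0.030). The Kcne1 call was lost in 6 of 13 alternative settings, among them both rescalings and the inner medulla covariate, and in 8 of the 23 fits with 1 animal left out.

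In the thick ascending limb and the distal tubule, which reabsorb salt and magnesium, 26 of 28 tested markers had a positive log2 fold change. Of all genes 73.2% had a negative one. The median was 0.14, against -0.07 for all genes. With the inner medulla level as a covariate 24 of 28 were positive and 7 had an adjusted p under 0.05 (median 0.15, against -0.10 for all genes). With median-of-ratios scaling 28 of 28 were positive. Esrrb, an orphan nuclear receptor, was the only DEG among the 28 in the main fit. It ran from 1.04 to 3.21 FPKM (median 2.75) in Vehicle and from 2.73 to 5.11 (median 4.09) with Compound 1, which is 0.61 on the log2 scale (SE 0.14, limma adjusted p = 0.048). That call was lost in 18 of the 23 fits with 1 animal left out, in which the adjusted p ran from 0.015 to 0.088. Egf, epidermal growth factor, ran from 19.3 to 57.5 FPKM (median 39.3) and from 36.3 to 89.6 (median 62.8), with 11 of 12 treated animals above the Vehicle median and an adjusted p of 0.051. It passed in 9 of 14 alternative settings. Egf averaged 64.5 ± 11.3 FPKM with Enalapril alone and 64.3 ± 16.9 with Compound 1. The thiazide-sensitive cotransporter Slc12a3 was at 164 ± 15.6 and 193 ± 19.9 FPKM (0.24 on the log2 scale, SE 0.06, adjusted p = 0.079), and Umod at 970 ± 275 and 1113 ± 198 FPKM (adjusted p = 0.47). None of 30 markers of the proximal tubule and 18 of intercalated cells was a DEG, where 0.2% of all tested genes were. With the inner medulla level as a covariate 1 proximal tubule marker was a higher DEG, and 7 of the 30 had an adjusted p under 0.05. In that fit 4533 of all 13482 genes had an unadjusted p under 0.05.

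The other higher DEGs were Matn1, Pgam2, Slc23a3 and Sgca. Esrrb, Pgam2, Slc23a3 and Matn1 are genes the study picked out on these animals, which makes their direction no independent evidence. Matn1, a matrilin of cartilage matrix, ran from 1.32 to 4.95 FPKM (median 2.95) in Vehicle and from 4.48 to 9.70 (median 7.34) with Compound 1, and 1 treated animal was inside the Vehicle range (log2 fold change 1.13, SE 0.16, limma adjusted p = 0.0012). Pgam2, the muscle form of phosphoglycerate mutase, ran from 2.01 to 5.29 FPKM (median 3.37) and from 3.77 to 6.42 (median 5.53), a log2 fold change of 0.69 (SE 0.13). Slc23a3, a member of the ascorbate transporter family, ran from 12.3 to 23.5 FPKM (median 16.6) and from 16.6 to 36.2 (median 27.1), a log2 fold change of 0.63 (SE 0.12). Sgca, alpha-sarcoglycan of the muscle membrane, ran from 0.946 to 2.18 FPKM (median 1.80) and from 1.85 to 3.03 (median 2.61), with 0.60 (SE 0.14, adjusted p = 0.045), and its call was lost in 16 of the 23 fits with 1 animal left out.

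**Figure D3:**
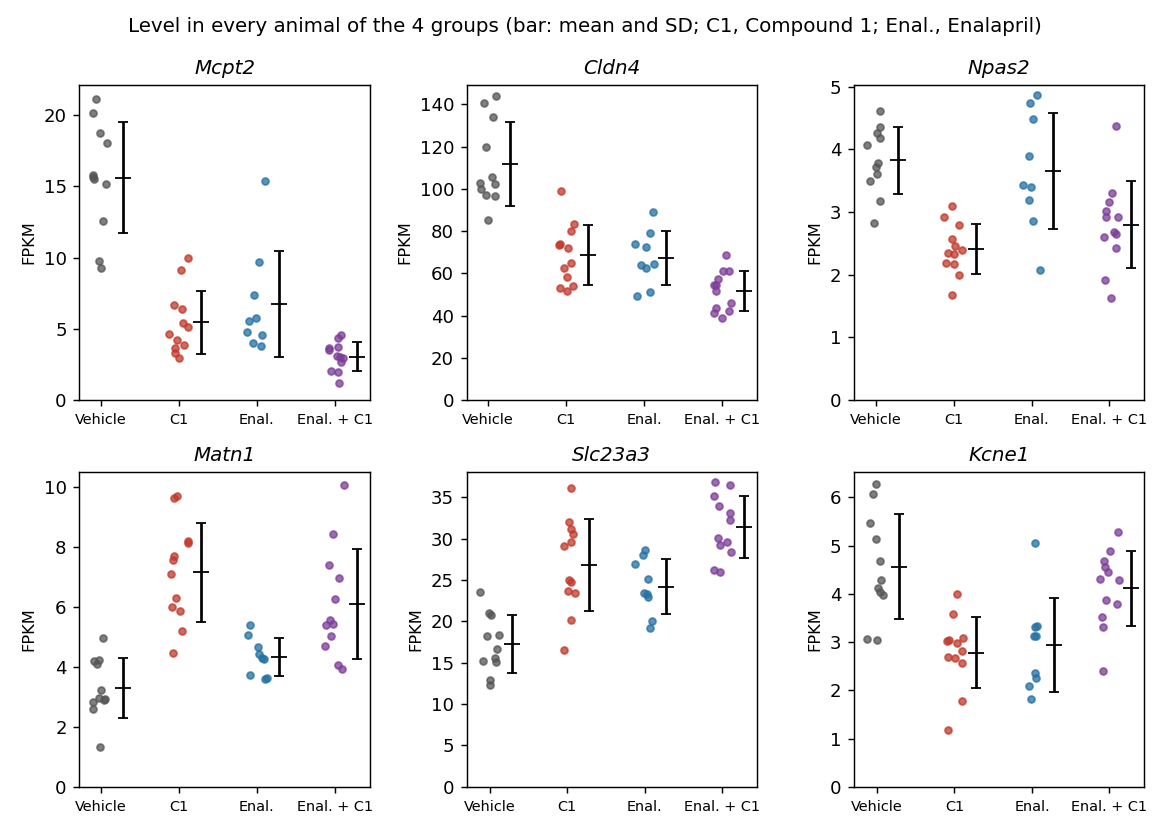
FPKM (y axis) of Mcpt2, Cldn4, Npas2, Matn1, Slc23a3 and Kcne1 in every animal of the 4 groups, with the mean and SD as black bars. Mcpt2 averages 15.6 FPKM in Vehicle, 5.45 with Compound 1, 6.77 with Enalapril and 3.06 with the combination. Kcne1 averages 4.56, 2.78, 2.94 and 4.11 FPKM in the same order.

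Lower DEGs of single functions came from several classes. Olfm4, a secreted glycoprotein of stressed epithelia, ran from 7.47 to 17.8 FPKM (median 13.1) in Vehicle and from 4.70 to 8.65 (median 6.26) with Compound 1 (log2 fold change -0.95, SE 0.14, limma adjusted p = 0.0012). All 12 treated animals were below the Vehicle median, and 2 were inside the Vehicle range. Npas2, a clock transcription factor that pairs with Bmal1, ran from 2.82 to 4.61 FPKM (median 3.78) and from 1.67 to 3.09 (median 2.37), which is -0.65 on the log2 scale (SE 0.10, adjusted p = 0.0012). It was the only DEG among 20 clock genes, and its call was lost in 3 of 13 settings (both rescalings and a pseudocount of 1). Bmal1, listed as Arntl, was at 10.2 ± 2.89 and 8.56 ± 1.67 FPKM (adjusted p = 0.53).

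Cacna1h, a T-type calcium channel, ran from 1.03 to 1.49 FPKM (median 1.38) in Vehicle and from 0.52 to 0.995 (median 0.729) with Compound 1. Its groups did not overlap (log2 fold change -0.69, SE 0.13, limma adjusted p = 0.0096). All 11 Vehicle animals and no Compound 1 animal were above the 1 FPKM of the filter. Cacna1h thus passed the filter mainly through Vehicle, so its lack of overlap is partly set by the filter and is not separate evidence. Col6a5, a chain of collagen VI, ran from 1.11 to 2.11 FPKM (median 1.53) and from 0.559 to 1.05 (median 0.777), again without overlap (-0.86, SE 0.13, adjusted p = 0.0015). Groups did not overlap in 5 of all tested genes (0.0371%), which were Cacna1h, Col6a5, Mcpt8l2, Scnn1a and the entry AABR07044470.1, which is not annotated. That entry was low throughout, at a median of 0.856 FPKM in Vehicle and 0.303 with Compound 1, and had the largest log2 fold change of the DEGs described (-1.80, SE 0.34, adjusted p = 0.010). No Compound 1 animal exceeded 0.63 FPKM, so it too passed the filter through other groups. Cacna1h and Col6a5 lost their calls with a pseudocount of 1.

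Prima1, which anchors acetylcholinesterase in the membrane, ran from 10.2 to 17.5 FPKM (median 14.3) in Vehicle and from 4.60 to 18.2 (median 6.01) with Compound 1. Its treated group was split, with animals 3104 and 3007 at 18.2 and 14.5 FPKM and the other 10 below every Vehicle animal (log2 fold change -0.99, SE 0.19, limma adjusted p = 0.010). Trib3, a pseudokinase induced in stress, had medians of 1.22 and 0.742 FPKM, and 8 of the 12 treated animals were inside the Vehicle range (-0.70, SE 0.14, adjusted p = 0.015). It was the only DEG of 31 genes of the integrated stress and unfolded protein response, whose factors Atf4 (108 and 91.0 FPKM) and Ddit3 (24.6 and 21.1 FPKM) did not pass. The remaining lower DEGs were Nrep, linked to neuronal regeneration (medians 49.2 and 32.5 FPKM), A2ml1, a protease inhibitor (3.17 and 1.73), Tgm1, a transglutaminase (1.64 and 0.802), and the entry AABR07038021.1, which is not annotated (2.80 and 1.55). Their log2 fold changes lay between -0.82 and -0.61.

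Genes of the NO, sGC and cGMP pathway, on which the compound acts, held no DEG, where 0.2% of all tested genes were DEGs. At that share a list of this size is expected to hold none. Of the 28 tested genes 3 had an unadjusted p under 0.05. The median log2 fold change was -0.05, or 0.03 with median-of-ratios scaling, under which 1 gene had an adjusted p under 0.05. With the inner medulla level as a covariate none was a DEG, and 4 of the 28 had an adjusted p under 0.05. In that fit 4533 of all 13482 genes had an unadjusted p under 0.05. The sGC subunits were at 15.0 ± 2.96 and 13.2 ± 2.33 FPKM for alpha 1 (Gucy1a1, log2 fold change -0.18, SE 0.11, limma adjusted p = 0.46) and at 8.22 ± 1.32 and 7.97 ± 1.62 for beta 1 (Gucy1b1, -0.06, SE 0.11, adjusted p = 0.84). The study instead reported raised expression of sGC subunit genes with Compound 1, by RNA-Seq and by qPCR. It tested raw counts with DESeq2, while the values here are FPKM. Among sources of NO, the endothelial synthase Nos3 was at 3.50 ± 0.560 and 3.91 ± 0.862 FPKM. Arg2, an arginase that competes for the substrate of the synthases, had the smallest p of the list, at 12.9 ± 1.70 and 16.0 ± 1.86 FPKM (0.31, SE 0.07, adjusted p = 0.055). The phosphodiesterases that break down cGMP included Pde5a (1.69 ± 0.339 and 1.51 ± 0.352 FPKM), Pde9a (7.34 ± 0.898 and 7.07 ± 0.789) and Pde1a, which calcium and calmodulin activate (7.26 ± 0.978 and 8.38 ± 1.10, adjusted p = 0.28). The natriuretic peptide receptor Npr1, which makes cGMP at the membrane, was at 11.1 ± 1.52 and 10.8 ± 1.36 FPKM, and Vasp, a target of cGMP-dependent kinase, at 50.1 ± 8.14 and 42.5 ± 7.95 (-0.24, SE 0.10, adjusted p = 0.31).

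DEGs against Vehicle in lists of matrix, tubular damage and leukocyte genes are set beside a share of 0.2% of all tested genes. At that share a list of this size is expected to hold none, so a list without a DEG does not stand apart. Of 39 tested genes of fibrosis and extracellular matrix Matn1 (higher) and Col6a5 (lower) were DEGs, which is above that share. The median log2 fold change of the matrix list was -0.02. With the inner medulla level as a covariate 1 was a higher and 1 a lower DEG, and 14 of the 39 had an adjusted p under 0.05. Of 25 tubular injury genes, 21 macrophage and monocyte genes, 18 T and B cell genes, 39 cytokines and chemokines and 21 immediate early genes none was a DEG. The medians of these lists were -0.07, -0.16, -0.11, -0.17 and -0.21. With the inner medulla level as a covariate 2 cytokine and chemokine genes and 2 immediate early genes were lower DEGs, and 7, 10, 6, 11 and 10 genes of the 5 lists, in that order, had an adjusted p under 0.05. In the covariate fit 4533 of all 13482 genes had an unadjusted p under 0.05, against 1793 without the covariate. Such counts therefore rose over all genes and not only in these lists. Kidney injury molecule 1 (Havcr1) averaged 35.9 FPKM in Vehicle and 34.9 with Compound 1, and lipocalin 2 (Lcn2) 141 and 148. Cd163, a scavenger receptor of macrophages, was the exception in its list, where the other 20 genes were negative. It ran from 0.336 to 1.61 FPKM (median 0.646) and from 0.632 to 2.65 (median 1.49), or 0.91 on the log2 scale (SE 0.25), which did not pass (limma adjusted p = 0.10). Cd163 passed in 5 of 13 alternative settings (both rescalings, sample weights, all 4 groups in the fit and the inner medulla covariate), with adjusted p from 0.013 to 0.034, and in 1 of the 23 fits with 1 animal left out. In all, 23 of 34 lists held no DEG, and 8 of the 25 DEGs described were in no list.

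Compound 1 and Enalapril given alone differed in several of these lists. Between them 310 genes were DEGs (2.3%). Of the fibrosis and extracellular matrix genes 14 of 39 were higher with Compound 1 than with Enalapril, as were 11 of 25 tubular injury genes, 4 of 18 T and B cell genes and 9 of 39 cytokines and chemokines. No gene of these lists was a DEG in the lower direction. Vimentin (Vim) averaged 250 ± 60.6 FPKM with Compound 1, 220 ± 52.7 with Vehicle and 146 ± 21.0 with Enalapril (log2 fold change from Enalapril 0.75, SE 0.12, limma adjusted p = 0.00084). Clusterin (Clu) averaged 1182 ± 501, 1179 ± 367 and 535 ± 104 FPKM in that order (1.06, SE 0.19, adjusted p = 0.0015). Fibronectin (Fn1) averaged 72.7 ± 15.1, 70.1 ± 11.5 and 44.8 ± 8.59 FPKM (0.69, SE 0.13, adjusted p = 0.0018). The markers of the inner medulla were higher too, with a median log2 fold change of 0.34 from Enalapril and 3 of 13 called, and their part in these differences was not tested.

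**Figure D4:**
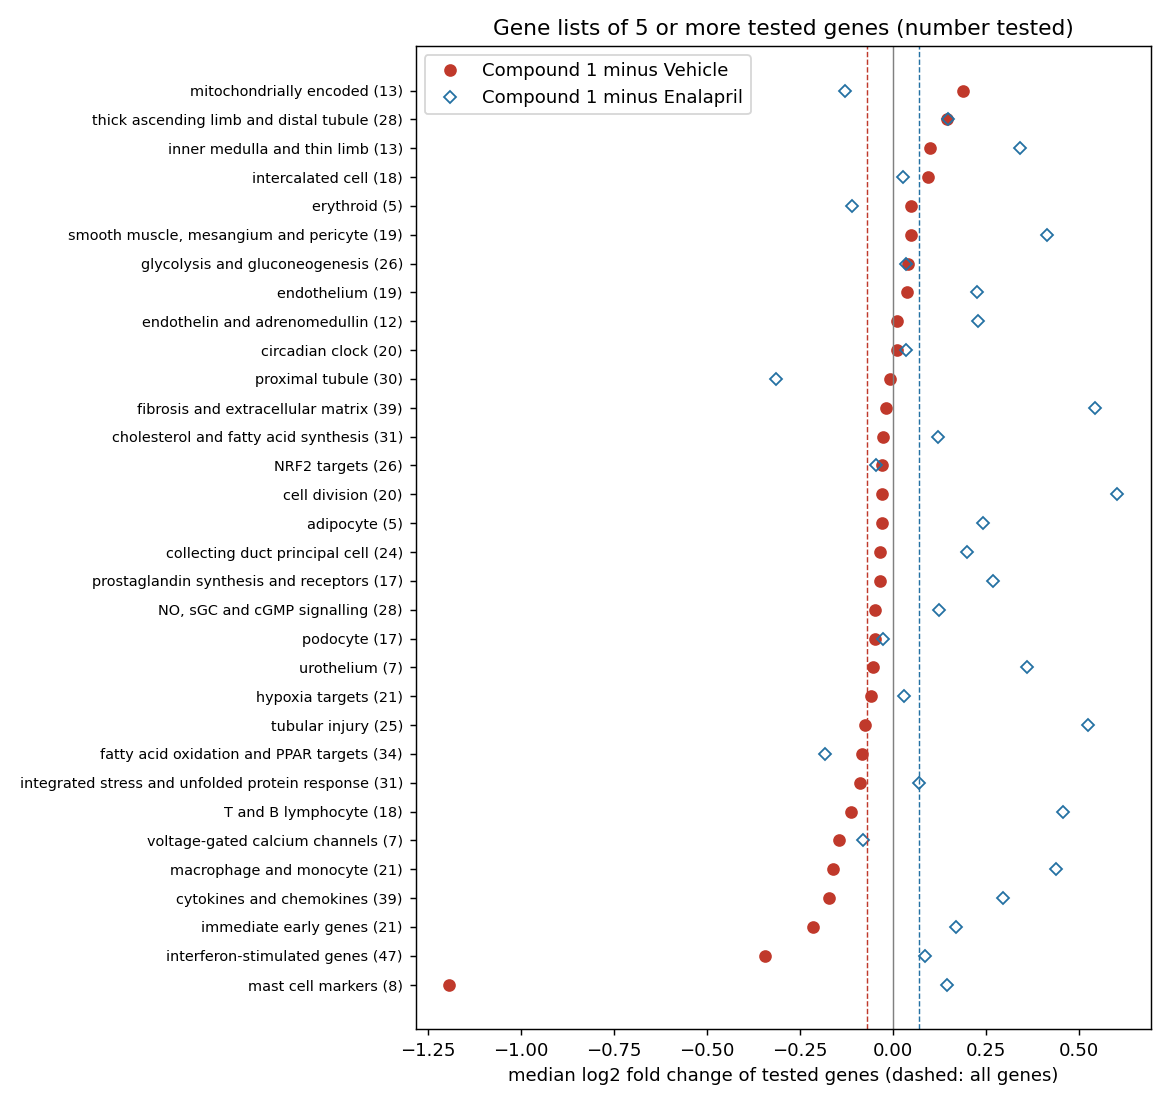
Median log2 fold change (x axis) of each gene list with 5 or more tested genes for Compound 1 minus Vehicle (red) and Compound 1 minus Enalapril (blue diamonds). Dashed lines are the medians of all genes, -0.07 and 0.07. Against Vehicle the mast cell (-1.19) and interferon (-0.34) lists lie lowest, and against Enalapril fibrosis (0.54), tubular injury (0.53) and cell division (0.60) lie highest.

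The same comparison was made in animals that share none with it, the combination (n = 12) against Enalapril (n = 9). The dose of Compound 1 there stayed at 1 mg/kg/day, so the conditions are not matched. In that comparison 1 gene was a DEG (0.00742%), and 1457 had an unadjusted p under 0.05 (10.8%). Over all genes 63.7% had the same sign in both comparisons. Of the 25 DEGs described for Compound 1 alone 24 had the same sign, and 16 of these also had an unadjusted p under 0.05. Every one of the 25 had a smaller log2 fold change in size than against Vehicle, with a median of 0.43 beside 0.73. The 25 were chosen for passing a threshold against Vehicle and not here.

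Slc23a3 was at 24.2 ± 3.33 FPKM with Enalapril and 31.4 ± 3.77 with the combination (log2 fold change 0.38, SE 0.08, unadjusted p = 7.3e-05, limma adjusted p = 0.082). Mcpt2 was at 6.77 ± 3.72 and 3.06 ± 0.993 FPKM (-1.06, SE 0.23, unadjusted p = 0.00012) and Mcpt8l2 at 1.32 ± 0.749 and 0.403 ± 0.258 (-1.56, SE 0.35, unadjusted p = 0.00018). Olfm4 was at 8.05 ± 2.69 and 5.12 ± 1.09 FPKM (-0.61, SE 0.15, unadjusted p = 0.00038). None of these 4 passed after adjustment (limma adjusted p from 0.082 to 0.11). The other mast cell proteases did not reach an unadjusted p under 0.05 there. Cma1 had a log2 fold change of -0.50 (SE 0.29, limma unadjusted p = 0.093), Cpa3 of -0.43 (SE 0.25, unadjusted p = 0.099) and Mcpt8l3 of -0.25 (SE 0.40, unadjusted p = 0.54). The interferon-stimulated genes were negative in 43 of 47, with a median of -0.12, against -0.02 for all genes. Of the 47, 7 had an unadjusted p under 0.05 (limma), as did 10.8% of all genes. Thick ascending limb and distal tubule markers had a median of 0.12 and were positive in 23 of 28.

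**Figure D5:**
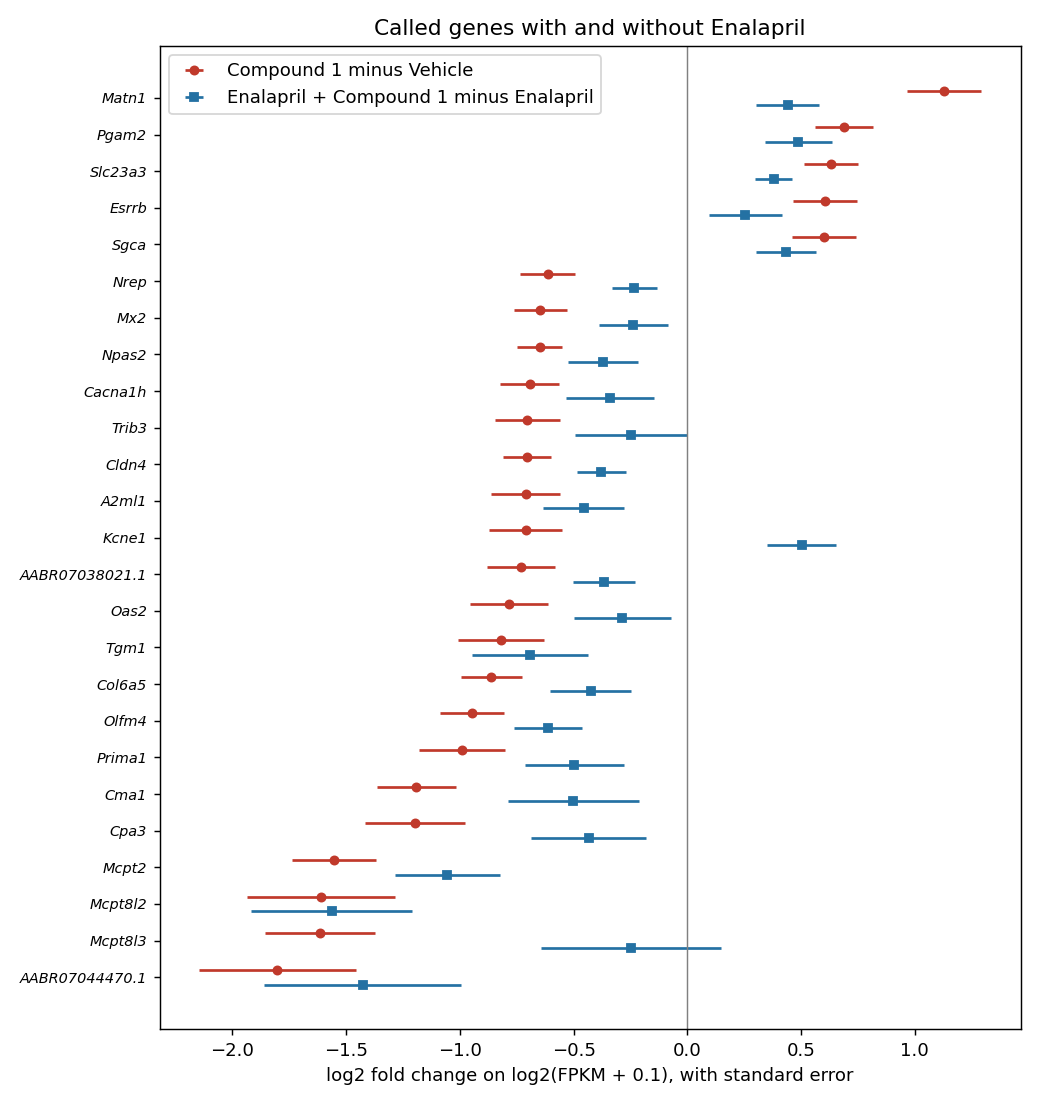
Log2 fold changes (x axis, with SE) of the 25 DEGs for Compound 1 minus Vehicle (red circles) and for the combination minus Enalapril (blue squares), which share no animals. In 24 genes both symbols lie on the same side of 0, and Kcne1 is the exception (-0.71 and 0.50).

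Kcne1 was the only gene whose difference with Compound 1 itself differed between animals with and without Enalapril by the interaction term of a fit of all 44 animals (0.00742% of the genes, limma adjusted p = 0.034). Its mean fell from 4.56 ± 1.09 to 2.78 ± 0.739 FPKM without Enalapril, and was 2.94 ± 0.975 with Enalapril and 4.11 ± 0.781 with the combination. With median-of-ratios scaling the adjusted p was 0.25. Of the 25 DEGs described 9 had an unadjusted interaction p under 0.05, among them Matn1 and Mcpt8l3.

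Other genes lay close to one of the thresholds. Of 37 genes with an adjusted p under 0.05 inside the threshold, 12 were higher and 25 lower. The one of smallest p was Mlph, a melanosome linker protein, at 23.5 ± 2.19 and 17.1 ± 2.53 FPKM (-0.47 on the log2 scale, SE 0.07, limma adjusted p = 0.0016). Nabp1, which binds single-stranded DNA, was just inside the threshold at 36.8 ± 4.29 and 24.8 ± 4.97 FPKM (-0.58, SE 0.09, adjusted p = 0.0018), and in the animals given Enalapril at 32.2 ± 5.23 and, with the combination, 21.7 ± 3.81 (-0.57, SE 0.10, adjusted p = 0.034). Cryab, a small heat shock protein and 1 of the inner medulla markers, was at 81.4 ± 7.47 and 100.9 ± 7.50 FPKM (0.31, SE 0.05, limma adjusted p = 0.0031). Fa2h, a fatty acid hydroxylase, was at 2.79 ± 0.504 and 4.04 ± 0.727 FPKM (0.52, SE 0.11, limma adjusted p = 0.023). Of the 37, 33 had the same sign in the combination against Enalapril, 14 with an unadjusted p under 0.05. Past the fold threshold but with an adjusted p between 0.05 and 0.1 were 9 entries, among them Slfn4 (23.4 ± 6.28 and 14.3 ± 4.95 FPKM, adjusted p = 0.058), the lipoprotein lipase cofactor Apoc2 (14.1 ± 4.19 and 27.3 ± 13.1, adjusted p = 0.058) and Cyp27b1, the enzyme that activates vitamin D (3.57 ± 1.43 and 1.60 ± 0.831, adjusted p = 0.097).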

How the data were processed

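Kidney RNA of 44 male obese ZSF1 rats was sequenced, 1 stranded mRNA library per animal, and each animal was a replicate of its labelled group. The authors deposited FPKM per gene. Per the submitters' processing notes the build was rn6, while the read aligner and counter were not given in the sources used here. Raw counts, which the authors tested with DESeq2, were not used here, and FPKM allow no count model. Here log2(FPKM + 0.1) was fitted with limma 3.58.1 (R 4.3.3, mean-variance trend) on the 2 groups compared, with all 4 groups for the interaction, and p was adjusted by the Benjamini-Hochberg method over the 13482 genes past the filter (more than 1 FPKM in 9 or more of the 44 animals). DEGs passed at an adjusted p under 0.05 and a ratio above 1.5 or under 0.66. Fold changes on this scale understate changes of low genes. For a symbol on more than 1 entry (295 symbols) the entry of highest mean stood for a listed gene. The test was checked on simulated data.

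The genes named are the DEGs, the genes the study names, those nearest the thresholds, up to 4 of smallest p in each list and the NO, sGC and cGMP genes. Others were named after their values were seen, among them Kit, Scnn1b, Aqp2, Umod, Havcr1, Lcn2, Clu and Fn1. Members and lists were chosen with earlier results of these data known. The results for 2 DEGs are not reported here. Promoter windows came from RefSeq (GRCr8). Alternatives were 2 other pseudocounts, other filters, 3 rescalings, sample weights, all groups, a covariate of 13 inner medulla markers, no fold threshold and left-out animals. The study housed animals singly during blood pressure recording and urine collection. Nothing says how libraries were batched. The p-values measure the spread between animals, from which a batch could not be separated.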

Additional observations from a re-analysis of the deposited data

Results flagged for a closer look

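Kcne1 differed in its response to Compound 1 between animals without and with Enalapril. The change with Compound 1 was higher by 1.21 on the log2 scale (SE 0.23) with Enalapril than without it, by the interaction term of the limma fit (adjusted p = 0.034). It is 1 gene of 13482 tested. The dose of Compound 1 also differed between the groups, so dose and Enalapril cannot be told apart. With median-of-ratios scaling the difference was 1.16 with an adjusted p of 0.25.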

How the results depend on the processing

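The 27 DEGs became 12 with a filter of FPKM above 5 (7 lower), 14 with a pseudocount of 1 (10 lower), 98 with the inner medulla covariate (24 higher, 74 lower) and 64 without the fold threshold (18 higher, 46 lower). Of these 12, 14 and 98 DEGs, 11, 13 and 26 were among the 27. Higher DEGs, 6 at first, numbered 10 with median-of-ratios scaling, 11 after quantile normalization, 12 with all 4 groups in the fit, 2 without Compound 1 animals 3102 to 3105, 3 without 3103 and 3011 and 3 without Vehicle animals 1003 and 1004. Leaving out 1 animal gave 21 (without Compound 1 animal 3103) to 36 DEGs (without Compound 1 animal 3105), 4 to 10 higher (10 without Vehicle animal 1008 or Compound 1 animal 3001) and 17 to 29 lower. Without Vehicle animal 1004 and Compound 1 animal 3105, whose libraries correlated least with the others, there were 35 DEGs, a choice made after seeing the data. With median-of-ratios scaling the combination against Enalapril had 2 DEGs in place of 1, and the interaction 0 genes in place of 1.

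Of the 25 DEGs described, 9 passed in every one of the alternative settings that could test them (Mcpt2, Cma1, Cpa3, Mcpt8l3, Matn1, Olfm4, Cldn4, Prima1 and AABR07044470.1), and 7 lost their call in at least 1 fit that left out an animal (Mx2, Nrep, Oas2, Kcne1, Sgca, Tgm1 and Esrrb). Of 1018 single-gene values under alternatives 0 reversed, 137 fell out of the call and 23 entered it; the cause was not tested. Low genes are limited by an unknown read depth. No paired analysis was possible because the animals were separate between groups.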
